A study of Mus musculus with 36 samples.

Results

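The transcription factors that specify and hold the B cell lineage were followed while C/EBPα turned B cells into macrophages (BMT, B cell to macrophage transdifferentiation). The 8 genes are Pax5, Ebf1, Foxo1, Bcl11a, Lef1, Pou2af1, Myb and Sox4. They were chosen by name for their known roles, with earlier results of these data already known. All 8 were found among the 40354 genes of the count tables, and all 8 passed the low-count filter in every fit. The RNA-seq experiment asked how a mutation of arginine 35 of C/EBPα changes the course of BMT. B cells from the bone marrow of C57BL/6J mice were infected with a retrovirus encoding C/EBPα fused to the estrogen receptor (ER) with hCD4 as a marker, and hCD4+ cells were grown on inactivated mouse embryo fibroblasts (MEFs), with estradiol added to bring the factor into the nucleus. The fused factor was wild-type C/EBPα (WT), or carried alanine (R35A) or lysine (R35K) in place of arginine 35. The 36 libraries, 2 per construct and timepoint, cover uninduced cells (0 hr post induction, hpi) and cells taken 1, 3, 6, 18 or 120 hr after induction, which makes 18 groups.

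Every group, including those at 0 hpi, carried the retrovirus, so the 0 hpi libraries are infected and uninduced, and no uninfected B cells were compared. The transdifferentiation medium held the cytokines IL-7, IL-3, FLT-3, mCSF-1 and mSCF, and by the methods it was later renewed with medium lacking IL-7. The labels call the cells of 120 hpi macrophages and those of the earlier timepoints B cells, and the age of the mice is not given in the sources used here. The methods call the replicates biological, but nothing in the labels ties a replicate number to a mouse or a culture. The p-values therefore measure the spread between these pairs of libraries, and what set the libraries of a pair apart is not known.

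In textbook B lymphopoiesis, Ebf1 and Foxo1 act early in a mutually reinforcing circuit that leads to expression of Pax5, which commits the cell to the B lineage by switching on B cell genes and holding genes of other lineages silent. Pou2af1 is a coactivator that joins octamer-binding POU factors at immunoglobulin promoters, while Myb, Lef1, Sox4 and Bcl11a support the survival and growth of B cell progenitors. C/EBPα is a factor of granulocyte and macrophage precursors that is known to extinguish the B cell program when forced into B cells.

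For orientation, the bases just before the start annotated in RefSeq are printed for 4 of the 8 genes. That start can differ from the GENCODE start in the gene coordinates given below. Pax5 was taken because its level was lowest relative to 0 hpi at 1 hpi, and Myb because it differed most between constructs. Pou2af1 was taken because its window alone held a C/EBP match, and Sox4 because it was not called lower before 120 hpi. The sequences are from RefSeq on GRCm38.p6 (mm10), 5′ to 3′ on the strand of the gene, with matches to the searched motifs in capitals. The Pax5 window is chr4:44710695-44710944 on the minus strand, the Myb window chr10:21160985-21161234 on the minus strand, the Pou2af1 window chr9:51213440-51213689 on the plus strand and the Sox4 window chr13:28953714-28953949 on the minus strand.
Pax5: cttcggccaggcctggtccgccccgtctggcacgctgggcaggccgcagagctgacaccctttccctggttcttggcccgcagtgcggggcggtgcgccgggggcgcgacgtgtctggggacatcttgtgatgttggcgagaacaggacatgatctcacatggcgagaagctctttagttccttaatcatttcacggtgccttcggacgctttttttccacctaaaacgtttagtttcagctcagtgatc
Myb: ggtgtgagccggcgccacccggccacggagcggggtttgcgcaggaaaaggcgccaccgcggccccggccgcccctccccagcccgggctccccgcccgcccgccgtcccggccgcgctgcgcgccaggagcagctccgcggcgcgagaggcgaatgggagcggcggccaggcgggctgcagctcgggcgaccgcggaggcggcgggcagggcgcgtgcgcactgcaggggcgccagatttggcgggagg
Pou2af1: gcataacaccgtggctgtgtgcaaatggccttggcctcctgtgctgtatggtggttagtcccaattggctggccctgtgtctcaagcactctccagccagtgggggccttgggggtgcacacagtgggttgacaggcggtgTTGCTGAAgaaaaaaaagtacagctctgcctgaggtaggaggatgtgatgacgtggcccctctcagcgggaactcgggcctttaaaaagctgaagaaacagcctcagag
Sox4: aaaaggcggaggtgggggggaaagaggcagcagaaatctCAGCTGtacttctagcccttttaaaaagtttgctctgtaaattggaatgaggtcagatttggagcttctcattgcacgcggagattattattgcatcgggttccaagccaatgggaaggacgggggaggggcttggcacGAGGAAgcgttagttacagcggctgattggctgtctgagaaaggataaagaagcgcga

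All 8 genes matched the promoter table, with 12 windows of 250 bases, 4 of them for Lef1 and 2 for Ebf1, and 14 bases of the Sox4 window that lie inside the annotated gene are not shown. TTGCNNAA, read as a C/EBP motif on both strands, was found in 9.56% of all 32851 windows of the table. Among the 8 genes it was in Pou2af1, 109 bases before the RefSeq start. GAGGAA, bound by PU.1 and other ETS factors, was found in 23.3% of all windows and in windows of Lef1, Ebf1 and Sox4, CAGCTG or CAGGTG, bound by E proteins, in 27.7% and in Lef1 and Sox4, and CCCNNGGG, bound by EBF, in 11.8% and in Foxo1. The octamer ATGCAAAT, held by 1.6% of all windows, was in none of the 12. The Pax5 and Myb windows held none of these letters, and the Myb window, with 81.2% GC and 40 CpG dinucleotides, was richer in both than the median window of 52.4% and 6 CpG. By the GENCODE coordinates given below, the windows of Bcl11a and Ebf1 lie inside the annotated gene. So do the Lef1 windows that begin at chr3:131112541 and chr3:131156044. The matches of Lef1 and Ebf1 are in such windows, not upstream of the annotated gene. A match describes the letters of these windows only.

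Libraries held 13044456 to 23131776 counts, and levels are given in CPM, counts scaled to the library total with TMM factors over the 36 libraries. The 6 B cell markers summed to 2208 to 2432 CPM per library at 0 hpi and to 55.8 to 134 at 120 hpi, while the 7 macrophage markers summed to 59.7 to 64.6 at 0 hpi and 17357 to 28402 at 120 hpi, in the direction of the labels. Markers of T, NK and erythroid cells summed to at most 4.8, 1.33 and 0.464 CPM in any library. The 6 granulocyte markers summed to 45.6 to 57.9 CPM at 0 hpi and to 1.83 to 7.55 at 1 to 18 hpi, and the 4 progenitor markers stood at 45.2 to 48.1, 42.9 to 78.3 and 3.82 to 5.77 CPM at 0, 1 to 18 and 120 hpi. The 7 fibroblast markers, from Col1a1 to Dcn, summed to 1842 to 2008 CPM at 0 hpi, 2270.2 to 4607 at 1 to 18 hpi and 144 to 543 at 120 hpi, although feeder cells were removed by adherence before extraction. Their part in the results was not tested, and in RNA from bulk cultures fewer B cells and less RNA of a gene per B cell cannot be told apart.

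Before induction the 8 genes differed widely in level per kilobase of exon. In the WT libraries of 0 hpi, Pou2af1 stood highest at 175 ± 0.637 CPM per kilobase (SD, n = 2), ahead of Pax5 at 96.9 ± 1.43, Ebf1 at 42.6 ± 0.611 and Myb at 35.1 ± 0.23. Sox4 at 26.9 ± 0.206 and Foxo1 at 24.1 ± 0.463 CPM per kilobase followed, then Lef1 at 14 ± 0.297, and Bcl11a was lowest at 2.36 ± 0.116. Each of these levels lay beyond the spread of its neighbours' replicates. Between R35A and WT cells at 0 hpi, log2 differences lay between −0.11 for Pax5 and 0.05 for Sox4, and 0 of the 8 passed the threshold used throughout, a 1.5-fold difference with an adjusted p of at most 0.05 (edgeR quasi-likelihood test, Benjamini-Hochberg over all genes tested), against 0% of all genes tested. Since all 8 differences lay inside 1.5-fold, an unadjusted p at the same fold could call none of them, and DESeq2 at that fold also gave 0. Small differences remained, with both R35A libraries below both WT libraries for Pax5, Ebf1, Foxo1, Pou2af1 and Myb. For Bcl11a, Lef1 and Sox4 the libraries overlapped.

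Within 1 hr of induction 7 of the 8 genes fell in cells of every construct, and Sox4 alone did not pass. The same 7 fell at 1, 3, 6 and 18 hpi in every construct, and all 8 had fallen at 120 hpi. Of all genes tested, 9.27%, 11.5%, 14.7%, 23.2% and 40.2% were called lower in WT cells at the 5 timepoints from 1 to 120 hpi. In R35A cells the corresponding shares of all genes were 18.9%, 19%, 19.2%, 21.6% and 39%, and in R35K cells 17.4%, 16.8%, 17.8%, 20.5% and 38.5%. The median log2 change of the 8 genes at 1 hpi was −0.92 in WT, −2.47 in R35A and −1.85 in R35K cells, beside −0.01, −0.0075 and −0.04 over all genes tested. The comparisons within a construct share its 0 hpi libraries. With a 2-fold in place of a 1.5-fold threshold, 3 of the 8, Pax5, Pou2af1 and Bcl11a, remained called in WT cells at 1 hpi, and 7 in R35A and in R35K cells.

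**Figure D1:**
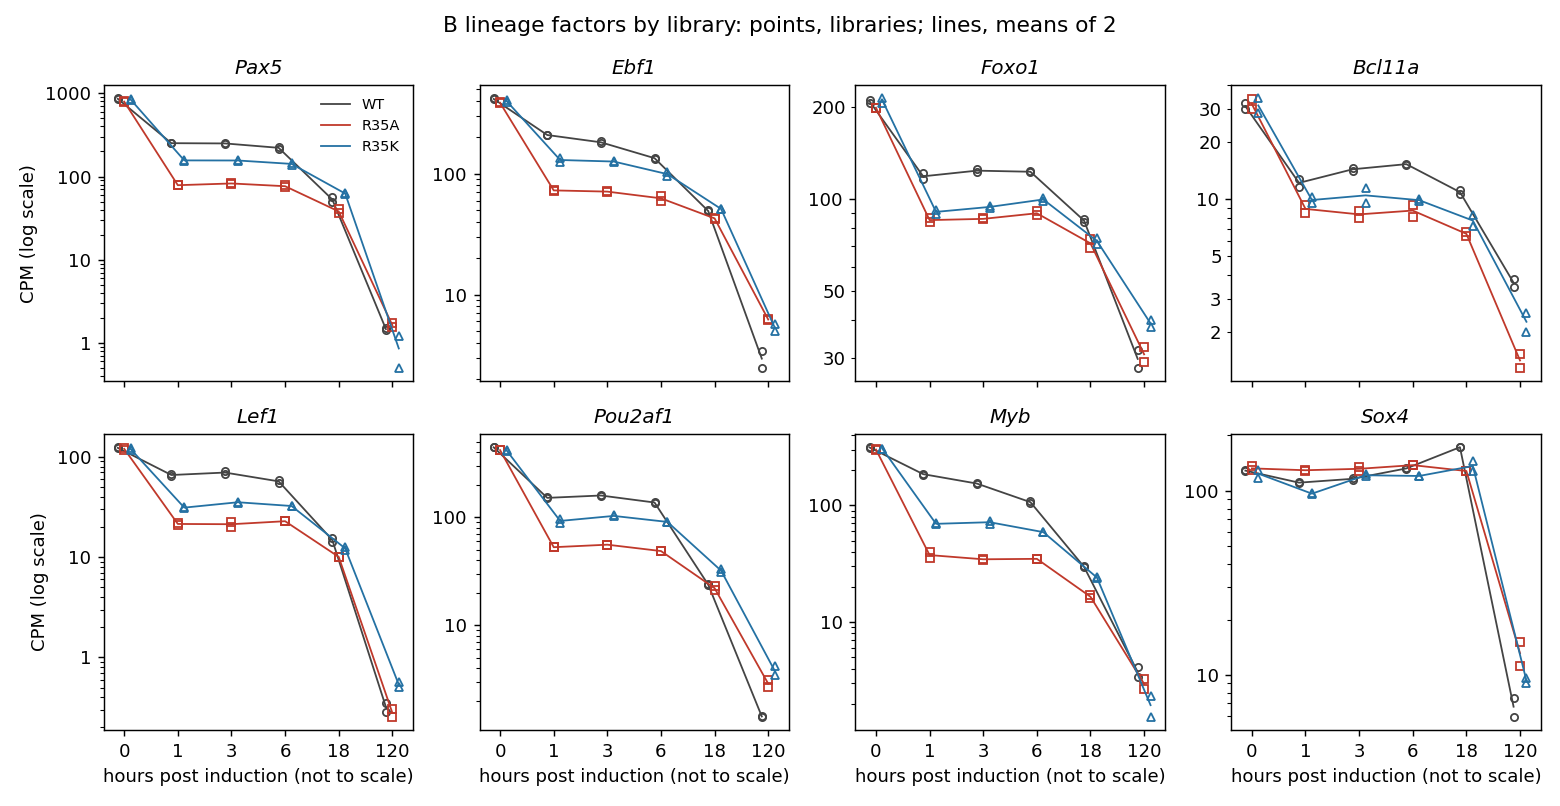
Level of each of the 8 factors in every library, in CPM on a log axis, against hours post induction in even steps, with points for libraries and lines through the means of 2 for WT (grey), R35A (red) and R35K (blue) cells. From 1 to 6 hpi the R35A points lie below the WT points in every panel but Sox4, with R35K between them in those panels, and at 18 hpi WT Sox4 lies above the mutants.

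Pax5, the factor that commits cells to the B lineage and represses genes of other lineages, showed the deepest early fall. The gene lies at mm10 chr4:44524757-44710487, minus strand. In WT cells Pax5 stood at 849 and 867 CPM before induction, 253 and 249.9 after 1 hr, 214 to 251 over the 4 libraries of 3 and 6 hpi, 49.9 and 56.1 by 18 hpi and 1.5 and 1.43 by 120 hpi. In R35A cells, Pax5 stood at 789 and 797 CPM before induction, 78.2 and 79.1 after 1 hr, 74.8 to 83.8 over the 4 libraries of 3 and 6 hpi, 40.2 and 36 by 18 hpi and 1.54 and 1.74 by 120 hpi. In R35K cells, Pax5 stood at 843 and 839 CPM before induction, 157 and 155 after 1 hr, 139 to 158 over the 4 libraries of 3 and 6 hpi, 63.1 and 61.8 by 18 hpi and 0.501 and 1.22 by 120 hpi. From 1 to 6 hpi the constructs did not overlap, with R35A lowest, R35K in the middle and WT highest, while at 18 hpi R35K was highest and R35A lowest. At 1 hpi Pax5 had fallen by a log2 change of −1.75 ± 0.04 (SE) in WT cells (adjusted p = 1.98e-38), −3.36 ± 0.04 in R35A cells (adjusted p = 1.79e-49) and −2.48 ± 0.04 in R35K cells (adjusted p = 4.13e-32, edgeR). This left 29.7%, 9.75% and 17.9% of the 0 hpi level. At 120 hpi, 17 and 15 counts remained in the WT libraries, 18 and 23 in R35A and 6 and 15 in R35K, and the log2 changes were −9.31 ± 0.20, −9.03 ± 0.18 and −10.01 ± 0.24.

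Ebf1, which opens the B cell program upstream of Pax5, fell in steps in WT cells and by most of its 18 hpi change within 1 hr in R35A cells. The gene lies at mm10 chr11:44617317-45008091, plus strand. In WT cells Ebf1 stood at 411 and 419 CPM before induction, 209.8 and 208 after 1 hr, 133 to 185 over the 4 libraries of 3 and 6 hpi, 48.7 and 49.7 by 18 hpi and 2.48 and 3.44 by 120 hpi. In R35A cells, Ebf1 stood at 389 and 383 CPM before induction, 71.6 and 74 after 1 hr, 60 to 72.1 over the 4 libraries of 3 and 6 hpi, 42.9 and 42.5 by 18 hpi and 6.31 and 6.14 by 120 hpi. In R35K cells, Ebf1 stood at 406 and 393 CPM before induction, 125 and 134 after 1 hr, 95.6 to 127 over the 4 libraries of 3 and 6 hpi, 51.2 and 51.1 by 18 hpi and 5.68 and 5.04 by 120 hpi. WT libraries lay above those of both mutants from 1 to 6 hpi, and at 120 hpi the order had turned, with both WT libraries below all 4 mutant ones. The log2 change at 1 hpi was −0.97 ± 0.03 in WT, −2.43 ± 0.04 in R35A and −1.67 ± 0.04 in R35K cells (edgeR adjusted p = 4.72e-29, 3.45e-45 and 4.62e-27), and at 18 hpi −3.08 ± 0.04, −3.19 ± 0.04 and −3.01 ± 0.05.

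Foxo1, a forkhead factor that drives Il7r and Rag expression and is held in the cytoplasm by AKT signalling, had the smallest fall of the 7 at 18 hpi in R35A and R35K cells, and in WT cells one within 2 SE of that of Bcl11a. It lies at mm10 chr3:52268336-52353221, plus strand. In WT cells Foxo1 stood at 212 and 206 CPM before induction, 116 and 121 after 1 hr, 122 to 125 over the 4 libraries of 3 and 6 hpi, 83.8 and 86 by 18 hpi and 27.9 and 31.8 by 120 hpi. In R35A cells, Foxo1 stood at 199.5 and 199 CPM before induction, 83.8 and 86.7 after 1 hr, 85.8 to 91 over the 4 libraries of 3 and 6 hpi, 73.7 and 69.2 by 18 hpi and 29.1 and 32.7 by 120 hpi. In R35K cells, Foxo1 stood at 214 and 207 CPM before induction, 89.3 and 92.1 after 1 hr, 93.5 to 101 over the 4 libraries of 3 and 6 hpi, 74.4 and 71.2 by 18 hpi and 40.1 and 37.9 by 120 hpi. R35A and R35K libraries lay close to each other and below WT from 1 to 18 hpi. At 1 hpi the log2 change was −0.80 ± 0.04, −1.25 ± 0.04 and −1.27 ± 0.04 in WT, R35A and R35K cells, and at 120 hpi 13%, 14.3% and 17.3% of the 0 hpi level was left, the highest share of the 8 genes, within 2 SE of that of Bcl11a in WT cells.

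Pou2af1, the lymphoid coactivator of octamer factors, was the most abundant of the 8 per kilobase and had the largest fall at 18 hpi in WT cells. It lies at mm10 chr9:51213708-51240080, plus strand. In WT cells Pou2af1 stood at 447 and 444 CPM before induction, 153 and 149 after 1 hr, 136 to 159.8 over the 4 libraries of 3 and 6 hpi, 23.9 and 23.6 by 18 hpi and 1.41 and 1.43 by 120 hpi. In R35A cells, Pou2af1 stood at 420.1 and 419 CPM before induction, 53 and 52.6 after 1 hr, 48.3 to 55.8 over the 4 libraries of 3 and 6 hpi, 22.9 and 21.1 by 18 hpi and 3.07 and 2.65 by 120 hpi. In R35K cells, Pou2af1 stood at 413 and 424 CPM before induction, 89.2 and 95.9 after 1 hr, 89.8 to 104 over the 4 libraries of 3 and 6 hpi, 31.1 and 33 by 18 hpi and 3.42 and 4.14 by 120 hpi. Both R35A libraries were below both R35K libraries, and these below WT, from 1 to 6 hpi, whereas at 120 hpi WT was lowest. At 18 hpi the log2 change was −4.23 ± 0.05 in WT, −4.28 ± 0.05 in R35A and −3.75 ± 0.05 in R35K cells, and at 1 hpi −1.54 ± 0.03, −3.01 ± 0.04 and −2.23 ± 0.04 (edgeR adjusted p = 2.95e-38, 1.79e-49 and 1.62e-30).

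Myb, a factor of hematopoietic progenitors that pro-B cells need to survive, separated the constructs most. It lies at mm10 chr10:21124935-21160984, minus strand. In WT cells Myb stood at 312 and 315 CPM before induction, 183 and 187 after 1 hr, 105 to 154 over the 4 libraries of 3 and 6 hpi, 29.4 and 30 by 18 hpi and 3.36 and 4.11 by 120 hpi. In R35A cells, Myb stood at 303 and 299 CPM before induction, 39.5 and 35.5 after 1 hr, 34.3 to 34.9 over the 4 libraries of 3 and 6 hpi, 16 and 17 by 18 hpi and 2.64 and 3.26 by 120 hpi. In R35K cells, Myb stood at 305 and 307 CPM before induction, 69 and 70 after 1 hr, 58.7 to 73.8 over the 4 libraries of 3 and 6 hpi, 23.8 and 24.4 by 18 hpi and 2.34 and 1.54 by 120 hpi. At 1 hpi 59.9% of the 0 hpi level was left in WT cells, against 12.3% in R35A and 21.9% in R35K cells, and the 6 libraries did not overlap between constructs. The log2 changes were −0.74 ± 0.04, −3.03 ± 0.05 and −2.19 ± 0.04 (edgeR adjusted p = 1.73e-23, 5.32e-47 and 4.65e-30), so that Myb had the smallest fall of the 7 in WT cells and in R35A cells one close to that of Pou2af1. In WT cells Myb, Foxo1, Lef1 and Ebf1 were neighbours in the order of falls at 1 hpi and did not differ from one to the next by more than 2 SE.

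Lef1, an HMG-box factor that carries Wnt signals in B cell progenitors, followed a like course at a lower level. It lies at mm10 chr3:131110471-131224356, plus strand. In WT cells Lef1 stood at 121 and 125 CPM before induction, 66.8 and 64.8 after 1 hr, 54.7 to 71.4 over the 4 libraries of 3 and 6 hpi, 15.5 and 14.1 by 18 hpi and 0.354 and 0.287 by 120 hpi. In R35A cells, Lef1 stood at 118 and 122 CPM before induction, 20.7 and 22 after 1 hr, 20.1 to 22.9 over the 4 libraries of 3 and 6 hpi, 10 and 10.1 by 18 hpi and 0.256 and 0.303 by 120 hpi. In R35K cells, Lef1 stood at 122 and 117 CPM before induction, 30.7 and 31.6 after 1 hr, 32.2 to 35.8 over the 4 libraries of 3 and 6 hpi, 12.7 and 11.7 by 18 hpi and 0.501 and 0.569 by 120 hpi. WT libraries lay above all mutant libraries at 1 and 3 hpi, and all 3 constructs had few counts at 120 hpi. The log2 changes at 1 hpi were −0.88 ± 0.05, −2.51 ± 0.06 and −1.99 ± 0.06 (edgeR adjusted p = 4.91e-21, 3.06e-38 and 1.01e-25). At 120 hpi the libraries held 4 and 3 counts in WT, 3 and 4 in R35A and 6 and 7 in R35K cells, so Lef1 was at 0.262% of its 0 hpi level in WT cells (95% interval 0.105 to 0.54%), 0.234% of its 0 hpi level in R35A cells (95% interval 0.094 to 0.482%) and 0.448% of its 0 hpi level in R35K cells (95% interval 0.238 to 0.767%), with exact intervals that cover counting error only. The intervals overlap, and differences between constructs in Lef1 were not detectable at this depth at 120 hpi with edgeR.

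Bcl11a, a zinc finger factor required for B lymphopoiesis, had the lowest level of the 8 per kilobase. It lies at mm10 chr11:24078056-24174123, plus strand. In WT cells Bcl11a stood at 30 and 32.1 CPM before induction, 11.7 and 12.8 after 1 hr, 14.1 to 15.5 over the 4 libraries of 3 and 6 hpi, 11.2 and 10.7 by 18 hpi and 3.45 and 3.82 by 120 hpi. In R35A cells, Bcl11a stood at 33.9 and 29.9 CPM before induction, 8.48 and 9.35 after 1 hr, 8.0 to 9.39 over the 4 libraries of 3 and 6 hpi, 6.42 and 6.75 by 18 hpi and 1.54 and 1.29 by 120 hpi. In R35K cells, Bcl11a stood at 34.2 and 28.6 CPM before induction, 9.57 and 10.3 after 1 hr, 9.56 to 11.5 over the 4 libraries of 3 and 6 hpi, 8.27 and 7.21 by 18 hpi and 2.0 and 2.52 by 120 hpi. In WT cells Bcl11a was lower at 1 hpi than at 6 hpi, and 87.3% of its log2 fall at 18 hpi was already present at 1 hpi, the highest share of the 7. The log2 changes at 1 hpi were −1.32 ± 0.09, −1.86 ± 0.10 and −1.71 ± 0.11 in WT, R35A and R35K cells, with standard errors above those of the other 7 genes.

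Sox4, an HMG-box factor that pro-B cells need, did not follow the others before 120 hpi. It lies at mm10 chr13:28948919-28953713, minus strand and is annotated with 1 exon. In WT cells Sox4 stood at 128 and 129 CPM before induction, 109.8 and 112 after 1 hr, 115 to 133 over the 4 libraries of 3 and 6 hpi, 173 and 173 by 18 hpi and 7.52 and 5.93 by 120 hpi. In R35A cells, Sox4 stood at 129 and 136 CPM before induction, 129 and 129.9 after 1 hr, 129 to 138 over the 4 libraries of 3 and 6 hpi, 127 and 129 by 18 hpi and 15 and 11.2 by 120 hpi. In R35K cells, Sox4 stood at 118 and 130.4 CPM before induction, 97.5 and 95.6 after 1 hr, 119.8 to 123 over the 4 libraries of 3 and 6 hpi, 128 and 145 by 18 hpi and 9.6 and 9.02 by 120 hpi. The libraries of 0 to 18 hpi lay within a narrow band in R35A cells, while in WT cells both libraries of 18 hpi were above all earlier ones and in R35K cells both libraries of 1 hpi were below all others up to 18 hpi. The log2 change at 18 hpi in WT cells, 0.42 ± 0.04 (edgeR adjusted p = 7.8e-13), and that at 1 hpi in R35K cells, −0.41 ± 0.05 (adjusted p = 1.19e-08), were both under the 1.5-fold threshold. In R35A cells the value at 1 hpi was −0.06 ± 0.04 (edgeR adjusted p = 0.214), and its sign turned with DESeq2's size factors. At 120 hpi Sox4 had fallen by a log2 change of −4.38 ± 0.11 in WT, −3.47 ± 0.08 in R35A and −3.83 ± 0.10 in R35K cells.

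The fibroblast markers were high and low together with Sox4 in WT cells at the late timepoints. Their summed mean level in WT cells was 1864, 3460.3, 4562 and 159 CPM at 0, 1, 18 and 120 hpi, beside Sox4 means of 129, 111, 173 and 6.72 CPM. In R35A cells the fibroblast sums at 0, 1, 18 and 120 hpi were 1985, 3562, 3055 and 532 CPM, and in R35K cells 1909, 2762, 2282 and 418 CPM. Both the sum and Sox4 were highest in WT cells at 18 hpi and lowest in WT cells at 120 hpi. The sum was higher at 1 than at 0 hpi in every construct. Mean Sox4 was lower at 1 than at 0 hpi in WT and R35K cells, while in R35A cells the libraries of these timepoints overlapped. The part of fibroblast RNA in the Sox4 counts was not tested. At 1 hpi 7 of the 7 markers were called higher in WT cells, 5 in R35A and 4 in R35K cells (edgeR), beside 10.7%, 18.3% and 15.5% of all genes. One of the markers, Lum, had 0 counts in the 120 hpi libraries of every construct.

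**Figure D2:**
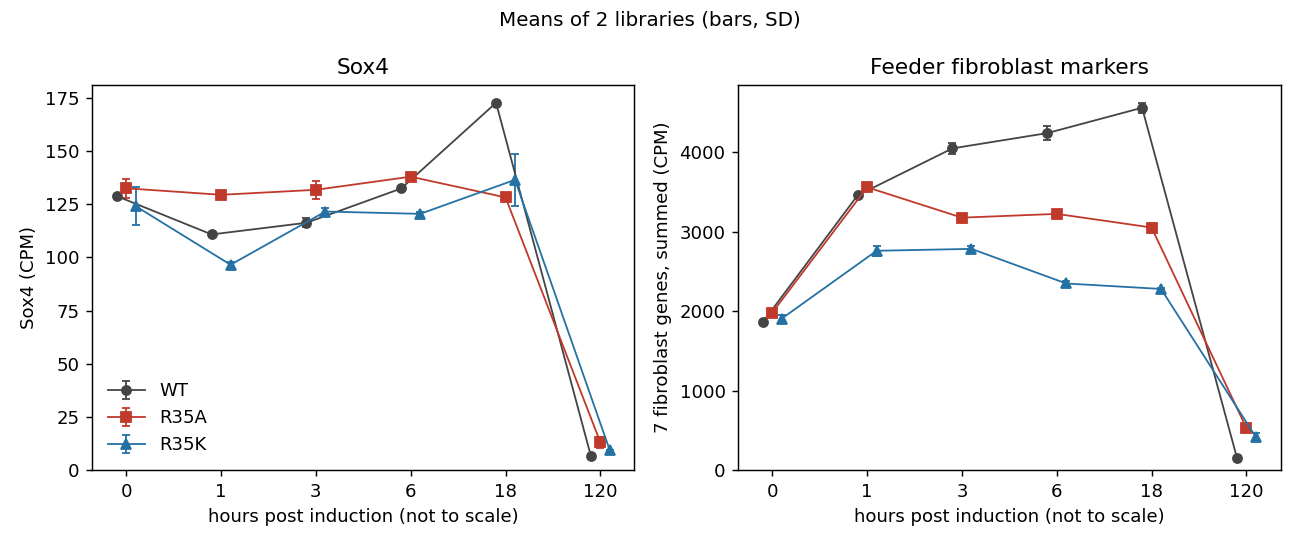
Mean CPM of Sox4 (left) and of 7 fibroblast markers summed (right) against hours post induction in even steps, with bars of 1 SD over 2 libraries, for WT, R35A and R35K cells. Sox4 stayed between 96.5 and 173 CPM up to 18 hpi, while the fibroblast sum was above its 0 hpi level from 1 to 18 hpi, and both were low at 120 hpi.

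Most of the B lineage factors fell further in R35A than in WT cells within the first hour. At 1 hpi the change from 0 hpi was called different from that of WT for 5 of the 8 genes, all lower in R35A cells, against 8.74% of all genes tested. It was largest for Myb, at a log2 difference of −2.29 ± 0.06 (edgeR adjusted p = 9.89e-35), followed by Lef1 at −1.63 ± 0.08 (adjusted p = 1.49e-23), Pax5 at −1.61 ± 0.06 (adjusted p = 3.61e-29), Pou2af1 at −1.48 ± 0.05 (adjusted p = 3.16e-29) and Ebf1 at −1.46 ± 0.05 (adjusted p = 1.31e-28). Bcl11a at −0.54 ± 0.13 (edgeR adjusted p = 0.000789) and Foxo1 at −0.45 ± 0.06 (adjusted p = 8.33e-09) were on the same side but under the 1.5-fold threshold, and Sox4 stood at 0.14 ± 0.06 (adjusted p = 0.0754). Without the second R35A library of 0 hpi or the first WT library of 1 hpi, Bcl11a passed as well, at −0.64 and −0.60.

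At 3 and 6 hpi, 6 of the 8 genes, the same 5 and Bcl11a, were lower in R35A cells relative to 0 hpi, against 7.43% and 5.99% of all genes. Myb remained the most different, at −2.12 ± 0.06 at 3 hpi and −1.55 ± 0.06 at 6 hpi, and Bcl11a stood at −0.85 ± 0.13 and −0.86 ± 0.13. At 18 hpi, 2 of the 8, Myb at −0.80 ± 0.08 and Bcl11a at −0.78 ± 0.14, were still called lower, against 2.89% of all genes, and Pax5 at −0.39 ± 0.06, Ebf1 at −0.11 ± 0.06 and Pou2af1 at −0.05 ± 0.07 were not. Lef1, at −0.54 ± 0.10, lay just inside the 1.5-fold threshold and passed it with DESeq2's size factors, at −0.60, with a DESeq2 Wald test, with limma on the log2 table and without the second WT library of 18 hpi. Sox4 was at −0.49 ± 0.06 at 18 hpi, when it was highest in WT cells, and Foxo1 at −0.20 ± 0.06.

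The course of the falls was described by the share of the 18 hpi fall that was reached at 1 hpi, on the log2 scale. Over the 7 genes that fell, this share was 21.7 to 87.3% in WT cells with a median of 36.3%, 69.8 to 83.2% with a median of 76.1% in R35A cells, and 55.6 to 83% with a median of 59.8% in R35K cells. The constructs differed most for Myb, at 21.7%, 72% and 59% in WT, R35A and R35K cells, and least for Bcl11a, at 87.3%, 81.3% and 83%. For Ebf1 the shares were 31.5%, 76.1% and 55.6%, and for Lef1 28.8%, 69.8% and 59.8%. Each share uses the same 0 hpi libraries in both of its parts and is a description with no test.

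**Figure D3:**
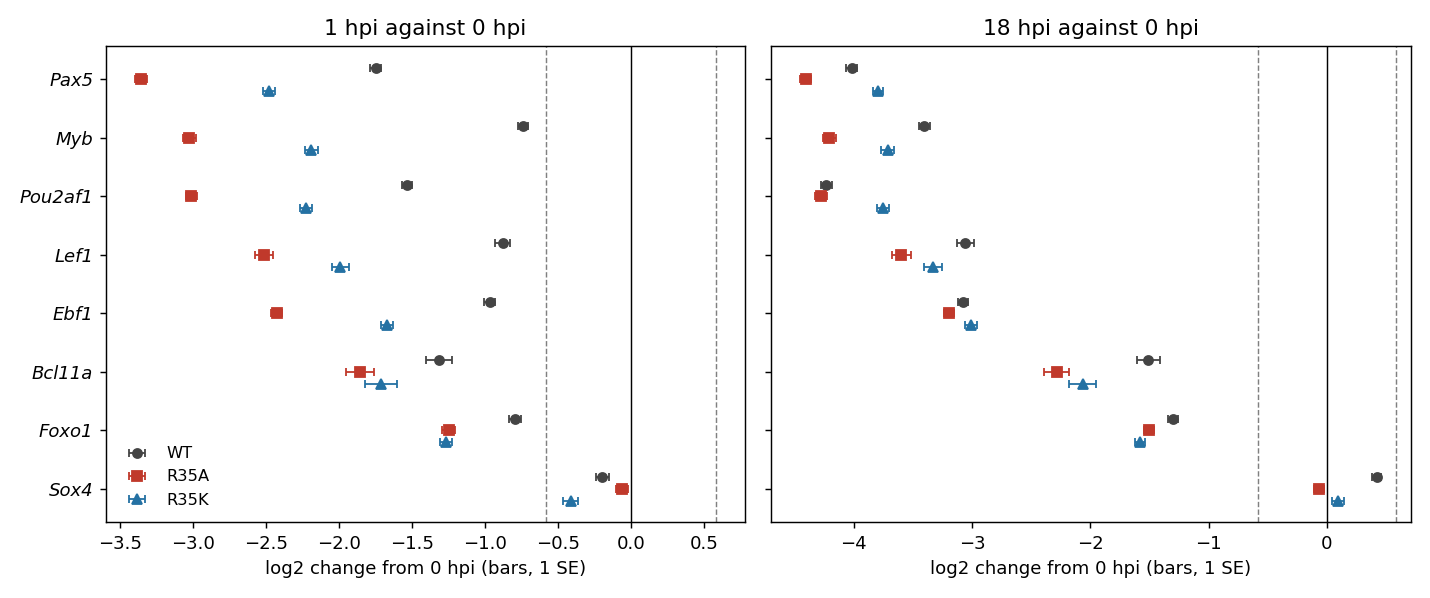
Log2 change from 0 hpi of the 8 factors at 1 hpi (left) and 18 hpi (right) in WT, R35A and R35K cells, with bars of 1 SE and dashed lines at a 1.5-fold change. At 1 hpi Pax5 stood at −1.75, −3.36 and −2.48 in WT, R35A and R35K cells, and at 18 hpi at −4.02, −4.41 and −3.79.

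Set against the WT timecourse, R35A cells at 1 hpi stood nearest to WT cells at 18 hpi for the 7 genes that fell. In the direct test of R35A at 1 hpi against WT at 18 hpi, 1 of the 8 genes was called, Pou2af1, which was higher in R35A cells at a log2 difference of 1.13 ± 0.05 (edgeR adjusted p = 2.98e-24), against 7.66% of all genes called higher. Pax5 at 0.55 ± 0.05, Ebf1 at 0.55 ± 0.05, Lef1 at 0.52 ± 0.08 and Myb at 0.32 ± 0.06 were also higher with adjusted p values of 1.2e-13, 3.56e-14, 4.73e-07 and 9.87e-06 (edgeR), but by less than 1.5-fold. Foxo1 stood at −0.01 ± 0.05, Bcl11a at −0.31 ± 0.11 and Sox4 at −0.43 ± 0.04, none of them called. Lef1 passed without the first WT library of 18 hpi, at 0.60, and Pax5 without the second, at 0.66, each making 2 of the 8. R35K cells at 1 hpi were nearest to WT cells at 6 hpi for Pax5, Ebf1, Lef1, Pou2af1 and Myb, by the difference of mean log2 CPM. These differences were −0.50, −0.05, −0.87, −0.57 and −0.62 in that order, so nearest does not mean alike. For Foxo1 and Bcl11a they were nearest to WT cells at 18 hpi, at 0.095 and −0.14.

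In R35K cells, too, several of the factors fell further than in WT cells, in a comparison that uses the same WT libraries. At 1 hpi 5 of the 8 genes had fallen further than in WT cells, against 5.08% of all genes, with Myb at a log2 difference of −1.38 ± 0.06 (edgeR adjusted p = 9.74e-28), Lef1 at −1.04 ± 0.07 (adjusted p = 1.31e-17), Pax5 at −0.66 ± 0.06 (adjusted p = 1.44e-14), Ebf1 at −0.63 ± 0.05 (adjusted p = 1.32e-14) and Pou2af1 at −0.62 ± 0.05 (adjusted p = 5.57e-15). Ebf1 and Pou2af1 fell short of 1.5-fold without the first R35K library of 1 hpi, at −0.58 and −0.57, which left 3 of the 8. By 3 hpi Myb, Lef1 and Pax5 were called (and Bcl11a without the second R35K library of 3 hpi, at −0.61), 3 of the 8 against 3.87% of all genes, and at 6 hpi Myb at −0.81 ± 0.06, Lef1 at −0.78 ± 0.07, Bcl11a at −0.65 ± 0.13 and Pax5 at −0.61 ± 0.06, 4 of the 8 against 4.53%. The 6 hpi calls of Bcl11a and Pax5 were lost without the first R35K library of 0 hpi (−0.51) and without the second WT library of 6 hpi (−0.57), respectively. At 18 hpi 0 of the 8 passed (edgeR), against 13.3% of all genes in either direction, and 0 at an unadjusted p with the same fold, while DESeq2 called 1, Bcl11a, at −0.62. Bcl11a also passed at 18 hpi without the second R35K library of 0 hpi (−0.63) or the first R35K library of 18 hpi (−0.62). The R35K libraries came in tables of their own, so the table and the construct cannot be told apart at any one timepoint, and the comparison rests on each construct's own 0 hpi libraries.

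Between the mutants, R35K left more of the factors in place than R35A. At 1 hpi 4 of the 8 genes had a smaller fall in R35K cells, Pax5 at 0.91 ± 0.06 (edgeR adjusted p = 4.46e-18), Myb at 0.87 ± 0.06 (adjusted p = 1.15e-16), Pou2af1 at 0.81 ± 0.05 (adjusted p = 1.48e-17) and Ebf1 at 0.78 ± 0.06 (adjusted p = 1.5e-16), against 4.15% of all genes. Lef1 joined them without the second R35A library of 1 hpi (0.59). At 3 hpi the same 4 and Lef1 were called, 5 of the 8 against 2.25%, and at 6 hpi Pou2af1, Pax5, Myb and Ebf1, 4 of the 8 against 4.69%. Ebf1 at 6 hpi stood at 0.62 ± 0.06 and fell short of the threshold with DESeq2's size factors (0.55), a DESeq2 Wald test, limma, no low-count filter, and without the second R35A or the second R35K library of 6 hpi. At 18 hpi Pax5 alone was called, at 0.64 ± 0.07, 1 of the 8 against 2.26% of all genes, and not without the second R35A library of 18 hpi (0.55) or with limma on the log2 table, while Pou2af1 joined it without the first R35A (0.61) or the first R35K library of 18 hpi (0.60). Foxo1 was not called between the mutants, with differences of 0.01 ± 0.06, 0.05 ± 0.06, 0.07 ± 0.06 and −0.05 ± 0.06 at 1, 3, 6 and 18 hpi, and Bcl11a stood at 0.17 ± 0.14 at 1 hpi. At 120 hpi 0 of the 8 passed (edgeR), against 1.61% of all genes in either direction, whereas 3 passed at an unadjusted p, Pax5, Myb and Bcl11a, and 4 with limma on the log2 table. Without the first R35K library of 120 hpi Myb passed (−0.96), and without the second Pax5 did (−1.78).

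**Figure D4:**
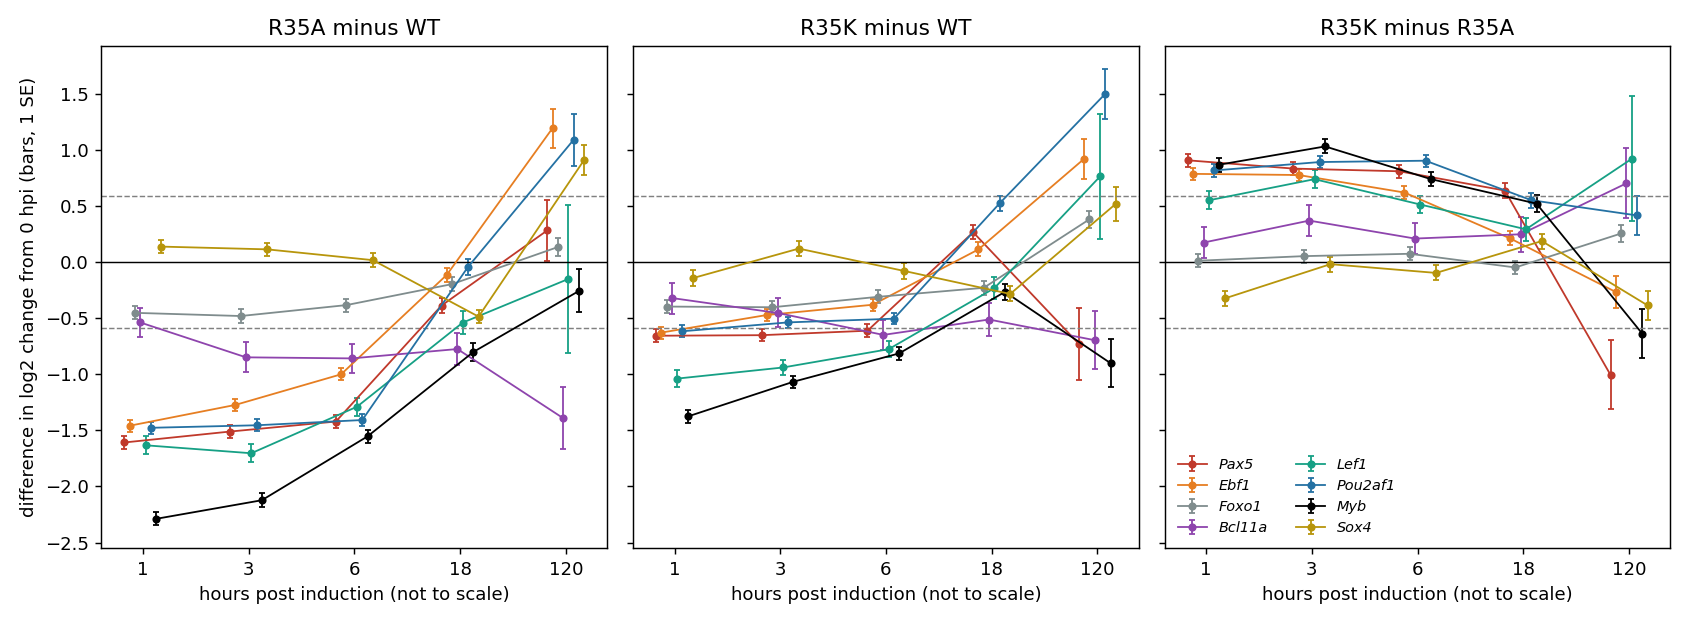
Difference between constructs in the log2 change from 0 hpi of each factor, against hours post induction in even steps, for R35A minus WT, R35K minus WT and R35K minus R35A, with bars of 1 SE and dashed lines at 1.5-fold. Myb is the lowest line at 1 hpi in the R35A and R35K comparisons with WT (−2.29 and −1.38), and at 120 hpi Ebf1 and Pou2af1 stand above 0 in both.

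Within each construct no step between neighbouring timepoints passed the threshold from 1 to 6 hpi, while several did afterwards. From 1 to 3 hpi 0 of the 8 genes were called in any construct (edgeR), beside 1.04%, 0.553% and 0.347% of all genes in WT, R35A and R35K cells, and from 3 to 6 hpi 0 of the 8 again, beside 1.04%, 0.177% and 1.19%. With an unadjusted p or with DESeq2 the count was 0 at both steps in every construct as well. These settings kept the 1.5-fold threshold, so a step under that fold could not pass them either. The steps were not all near 0, since in WT cells Myb stood at −0.29 ± 0.04 from 1 to 3 hpi and −0.55 ± 0.04 from 3 to 6 hpi, and Ebf1 at −0.22 ± 0.04 and −0.45 ± 0.04, each under 1.5-fold, while in R35A cells Myb stood at −0.13 ± 0.06 and 0.02 ± 0.06. From 1 to 6 hpi as a whole, mean Myb in WT cells went from 185 to 107 CPM and mean Ebf1 from 209 to 134. The change over that whole interval was not tested. From 6 to 18 hpi Pax5, Ebf1, Lef1, Pou2af1 and Myb fell again in WT cells, 5 of the 8 against 10% of all genes, with log2 steps from −1.44 ± 0.04 for Ebf1 to −2.51 ± 0.05 for Pou2af1. The same 5 fell in R35K cells, against 4.28%, with steps from −0.94 ± 0.05 for Ebf1 to −1.48 ± 0.05 for Pou2af1. In R35A cells 4 fell, against 2.76%, from −1.01 ± 0.05 for Pax5 to −1.18 ± 0.09 for Lef1, and Ebf1 at −0.55 ± 0.05 passed only without the second R35A library of 6 hpi (−0.61). From 18 to 120 hpi all 8 fell in each construct, against 33%, 29.4% and 28.5% of all genes, with Sox4 at −4.80 ± 0.11 in WT cells and Foxo1 at −1.64 ± 0.06.

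At 120 hpi the order of the constructs was no longer that of the first hours for Ebf1 and Pou2af1, with WT now lowest. Bcl11a kept its order of 1 to 6 hpi, with R35A lowest and WT highest. Ebf1, Pou2af1 and Sox4 were higher in R35A than in WT cells, at direct log2 differences of 1.09 ± 0.17, 1.01 ± 0.23 and 0.96 ± 0.13 (edgeR adjusted p = 6.52e-07, 0.00228 and 3.12e-09), 3 of the 8 against 12.4% of all genes. Bcl11a was lower, at −1.35 ± 0.27 (adjusted p = 1.42e-05, edgeR), 1 of the 8 against 6.38%. Relative to 0 hpi the same 4 genes were called, the 3 higher ones against 9.85% of all genes and Bcl11a against 4.63%. The counts behind these values were small, with 28 and 36 Ebf1 counts in the WT and 74 and 81 in the R35A libraries, 16 and 15 in WT against 36 and 35 in R35A for Pou2af1, 85 and 62 against 176 and 148 for Sox4, and 39 and 40 against 18 and 17 for Bcl11a. At this timepoint the summed B cell markers were highest in WT cells, at 128 to 134 CPM per library, against 55.8 to 61.5 in R35A and 92.4 to 93.2 in R35K cells. The fibroblast markers summed at 120 hpi to 159 CPM in WT, 532 in R35A and 418 in R35K cells, and their part in these differences was not tested.

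In R35K cells, too, Ebf1 at 0.92 ± 0.18 and Pou2af1 at 1.5 ± 0.22 had fallen less than in WT cells at 120 hpi, 2 of the 8 against 7.51% of all genes (edgeR adjusted p = 0.000189 and 1.44e-06). Myb at −0.90 ± 0.21 and Bcl11a at −0.70 ± 0.26 had fallen more, 2 of the 8 against 2.63% (edgeR adjusted p = 0.00341 and 0.0388). Both of these were lost without the second WT library of 120 hpi, at −0.75 and −0.62, and Myb also without the second R35K library of 120 hpi (−0.62). The Bcl11a call was further lost with a DESeq2 Wald test (−0.71), without the low-count filter (−0.65) and without the first replicate of any of the 4 groups. Foxo1 stood at 0.38 ± 0.08 and Sox4 at 0.52 ± 0.15, under the 1.5-fold threshold, although Sox4 passed without the first WT library of 120 hpi (0.71) or the second R35K library of 0 hpi (0.60). Pax5, with 6 and 15 counts in the R35K libraries, was at −0.73 ± 0.32 and passed without the second of them (−1.5) and with limma on the log2 table, with which Lef1 passed as well (0.67).

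Genes around the 8 factors in the same program mostly fell at 1 hpi, too. Of 15 other B lineage regulators, 8 fell in WT, 11 in R35A and 10 in R35K cells, with medians of −0.89, −1.40 and −1.20, and 0 rose in any construct (edgeR), beside 9.27%, 18.9% and 17.4% of all genes called lower. In R35A cells Ikzf3, the zinc finger factor Aiolos, was at −3.75 ± 0.07 and Bach2, a repressor of plasma cell differentiation, at −3.25 ± 0.05, whereas Runx1 at 0.17 ± 0.04 and Bcl6 at 0.10 ± 0.07 did not pass. Of 16 genes that these factors are known to act on, 14 fell in WT, 15 in R35A and 15 in R35K cells, against the same shares of all genes, and 1, Il7r, rose in R35K cells, with medians of −1.04, −2.63 and −1.89. The recombinase gene Rag1 at −3.82 ± 0.12 and the inhibitory co-receptor Cd22 at −3.82 ± 0.10 had the largest changes in R35A cells, the complement receptor Cr2 was at −1.36 ± 0.53, called with edgeR but not with DESeq2, limma or without the second R35A library of 0 hpi or the first of 1 hpi, and Il7r, the receptor of the IL-7 in the medium, at 0.44 ± 0.06 did not pass. At 1 hpi the R35A change of these 16 was lower than that of WT for 14, against 8.74% of all genes, and higher for 1, Il7r, against 5.29%.

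A short list of 5 genes that Pax5 is known to repress was also followed. Of these 5, 3 rose in WT cells at 1 hpi, against 10.7% of all genes, 4 in R35A cells, against 18.3%, and 3 in R35K cells, against 15.5%, and 0 fell in any of them (edgeR). In R35A cells Csf1r, the receptor of the macrophage growth factor CSF-1, was at 6.47 ± 0.07, the chemokine gene Ccl3 at 3.70 ± 0.16, Flt3 at 0.94 ± 0.28 and Notch1 at 0.42 ± 0.04, the last of them not called. Csf1r and Ccl3 are also genes of macrophages, and whether any of these rises followed from the fall of Pax5 was not tested. Of the relatives of the 8 factors, 2 rose and 1 fell of 13 tested in WT cells, 2 and 1 of 13 in R35A cells and 0 and 1 of 14 in R35K cells, beside 10.7% and 9.27%, 18.3% and 18.9%, and 15.5% and 17.4% of all genes called higher and lower. In R35A cells Mybl2, a Myb relative of dividing cells, was at −2.32 ± 0.08, Sox11 at 0.73 ± 0.12, and Foxo4 at −0.04 ± 0.08 and Sox12 at −0.03 ± 0.12 did not pass, the signs of the last 2 turning with DESeq2's size factors.

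The genes with the pattern most like each factor were found by Pearson correlation of mean log2 CPM over the 18 groups, among 17277 genes, as a description in which all genes share the same libraries, depths and timepoints. Pax5 was most like Aff3 (r = 0.998) and Tmem132e (r = 0.997). For Ebf1 these were Chst3 (r = 0.997), Mzb1 (r = 0.996) and Sit1 (r = 0.995), for Foxo1 Ptp4a3 (r = 0.991), Emid1 (r = 0.991) and Strbp (r = 0.990), and for Bcl11a Otud4 (r = 0.992), Trp53i11 (r = 0.985) and Rem2 (r = 0.981). Lef1 was most like Ttll11 (r = 0.996) and Erg (r = 0.995) and Pou2af1 most like Jakmip1 (r = 0.998), Mybpc2 (r = 0.997) and Spib (r = 0.996), which include the lymphoid ETS factor Spib. For Myb they were Slc43a1 (r = 0.994), Cplx2 (r = 0.993) and Sept1 (r = 0.992). Sox4 stood apart with Pard6g (r = 0.998) and Ptpn13 (r = 0.997), and the last was not among its 10 most alike in the log2 table. Among the 7 genes that fell early, every pair correlated at 0.931 or above, while Sox4 correlated with them at 0.759 to 0.882.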

How the data were processed

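RNA-seq of 36 libraries was analysed, 2 for each construct and timepoint, grouped by the labels. According to the methods and the submitters' processing notes, the authors prepared stranded polyadenylated libraries, ran FastQC, used STAR 2.5.0a both for alignment to mm10 and for gene counts, and normalized with DESeq2 1.14.1. The annotation release and the strand column of the counts are not given in the sources used here, so reads of the annotated genes on the other strand that share 125 to 2616 exon bases with Pax5, Foxo1, Bcl11a, Lef1, Myb or Sox4 cannot be set apart from theirs. The deposited count tables hold raw counts of 40354 genes. The deposited log2 tables hold log2 normalized counts of 19067 genes, and 100% of them were recovered here from the counts, as log2 of 1 plus the count over its size factor. WT and R35A libraries share a table, R35K libraries have their own.

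Counts were fitted with edgeR 4.0.16 in R 4.3.3 (TMM, filterByExpr, quasi-likelihood F tests), the 24 WT and R35A libraries together (16988 genes), the 12 R35K libraries alone (16434 genes), and all 36 for differences involving R35K and another construct (17277 genes). Genes were called at 1.5-fold and an adjusted p (Benjamini-Hochberg) no higher than 0.05. The fold is that of the methods, which do not say whether p was adjusted. SEs are Wald errors from the fitted means and dispersions. Total counts lay between 13044456 and 23131776 per library, and intervals cover counting error only. Over all well-counted genes, every replicate pair differed by more than counting noise, though some pairs only slightly. The mean chi-square per gene, near 1 for counting noise alone, ran from 1.12 (R35A, 6 hpi) to 16.6 (WT, 6 hpi). Libraries were scaled by their totals only in this check. The 8 genes, the gene lists and the tests were chosen with earlier results of these data known. Named genes were the 8, from each list the 2 with the largest and the 2 with the smallest R35A change at 1 hpi, and for each of the 8 the 3 most alike over the groups, of which some are not reported here. Hbb-bs, 1 of the 4 erythroid markers, and Bcl11b, 1 of 16 relatives, matched no gene row. Coordinates are from GENCODE vM21 on mm10, promoter sequences from RefSeq on GRCm38.p6. The pipeline was tested on simulated data. Other settings tried were edgeR with size factors of DESeq2, the Wald test of DESeq2 1.42.0, all genes without the filter, a replicate block, an unadjusted p, a 2-fold threshold, all 36 libraries in 1 fit, limma 3.58.1 on the log2 tables, and leaving out each library in turn.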

Additional observations from a re-analysis of the deposited data

Results flagged for a closer look

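The changes from 0 hpi differed between constructs, tested as the difference itself (edgeR quasi-likelihood test, Benjamini-Hochberg adjusted over all genes, 1.5-fold or more, n = 2 libraries a group). In log2 units, R35A minus WT gave Pax5 at −1.61, −1.51 and −1.42 at 1, 3 and 6 hpi, Ebf1 at −1.46, −1.27, −1.0 and 1.19 at 1, 3, 6 and 120 hpi, Bcl11a at −0.85, −0.86, −0.78 and −1.39 at 3, 6, 18 and 120 hpi, Lef1 at −1.63, −1.71 and −1.29 at 1, 3 and 6 hpi, Pou2af1 at −1.48, −1.46, −1.41 and 1.09 at 1, 3, 6 and 120 hpi, Myb at −2.29, −2.12, −1.55 and −0.80 at 1, 3, 6 and 18 hpi and Sox4 at 0.91 at 120 hpi. Negative values mark a deeper fall in R35A cells. R35K minus WT gave Pax5 at −0.66, −0.65 and −0.61 at 1, 3 and 6 hpi, Ebf1 at −0.63 and 0.92 at 1 and 120 hpi, Bcl11a at −0.65 and −0.70 at 6 and 120 hpi, Lef1 at −1.04, −0.94 and −0.78 at 1, 3 and 6 hpi, Pou2af1 at −0.62 and 1.5 at 1 and 120 hpi and Myb at −1.38, −1.07, −0.81 and −0.90 at 1, 3, 6 and 120 hpi. R35K minus R35A gave Pax5 at 0.91, 0.83, 0.81 and 0.64 at 1, 3, 6 and 18 hpi, Ebf1 at 0.78, 0.77 and 0.62 at 1, 3 and 6 hpi, Lef1 at 0.74 at 3 hpi, Pou2af1 at 0.81, 0.89 and 0.90 at 1, 3 and 6 hpi and Myb at 0.87, 1.03 and 0.74 at 1, 3 and 6 hpi, where positive values mark a smaller fall in R35K cells. Ebf1 and Pou2af1 had deeper falls in both mutants at 1 hpi and shallower ones at 120 hpi. The 3 sets share control libraries and are not independent of each other, and the groups of 2 libraries were too small for a search for single libraries that stand apart.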

How the results depend on the processing

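No called value of a single gene changed sign under any alternative, and the signs that turned belonged to values near 0. With DESeq2's size factors, a DESeq2 Wald test and limma on the log2 table, in that order, Sox4 in R35A cells was 0.016, 0.016 and 0.029 at 1 hpi and 0.031, 0.031 and 0.040 at 3 hpi, Foxo4 0.035, 0.032 and 0.041 and Sox12 0.045, 0.052 and 0.069 at 1 hpi, and with limma Sox4 was 0.0050 at 18 hpi. Sox4 in R35K cells at 3 hpi was 0.0034 and 0.0034 with the size factors and the Wald test. Foxo1, R35K minus R35A at 1 hpi, was −0.046, −0.046, −0.048 and −0.035 with these 3 and with no low-count filter, and Foxo1, R35A at 1 hpi against WT at 18 hpi, 0.0051 and 0.0081 with all libraries in 1 fit and with no filter. With a 2-fold threshold the count of the 8 genes became 3 in WT cells at 1 hpi, 0 for R35A minus WT at 18 hpi, 2, 1, 0 and 1 for R35K minus WT at 1, 3, 6 and 120 hpi, 0, 1, 0 and 0 for R35K minus R35A at 1, 3, 6 and 18 hpi, and for relatives of the 8 genes 0 in WT and 1 in R35A cells. R35K minus WT at 18 hpi gave 1 with size factors, the Wald test or limma, R35K minus R35A gave 0 at 18 hpi with limma and at 120 hpi 4 with limma and 3 with an unadjusted p, and relatives in R35K cells 2 with size factors or the Wald test. Leaving out 1 library at a time, counts ranged over 1 to 2 for R35A at 1 hpi against WT at 18 hpi, 3 to 5 for R35K minus WT at 1 hpi, 0 to 1 for the same at 18 hpi, 2 to 5 for R35K minus WT at 120 hpi, 0 to 2 for R35K minus R35A at 18 hpi and 0 to 1 for the same at 120 hpi, and 1 to 2 for relatives in R35K cells. Values whose sign turned ranged over −0.044 to 0.14 (Bcl11a, R35A against WT at 0 hpi), −0.018 to 0.026 (Foxo1, R35A at 1 hpi against WT at 18 hpi), −0.038 to 0.15 (Foxo1, R35A against WT at 120 hpi), −0.012 to 0.036 (Foxo1, R35K minus R35A at 1 hpi), −0.17 to 0.086 (Foxo4 in R35A cells at 1 hpi), −0.18 to 0.14 (Sox12, the same), −0.29 to 0.0038 (Lef1, R35A minus WT at 120 hpi), −0.083 to 0.034 (Pou2af1, R35A minus WT at 18 hpi), −0.024 to 0.049 (Sox4, R35A minus WT at 6 hpi) and −0.093 to 0.056 (Sox4, R35K minus R35A at 3 hpi). The size factors shifted the median of all genes by 0.12 at 18 hpi in WT cells, by 0.16, 0.13 and 0.14 at 120 hpi in WT, R35A and R35K cells, and by −0.11 for R35K minus WT at 18 hpi. Differences between replicates had a median r of −0.0063 over 153 pairs of groups (range −0.49 to 0.28, 12 over 0.1). These pairs mix groups of the same and of different constructs, so pairing of replicates within a construct was not tested. A fit with a replicate block left the counts of the 8 genes as they were, such as 5 for R35A minus WT at 1 hpi. That block is 1 term shared by the constructs of a fit. The cause of each turned sign or moved count was not tested, apart from the threshold, the filter and the number of libraries, which follow from how each alternative was built. With 2 libraries a group and few counts at 120 hpi, the standard errors of the 8 genes in WT cells were larger there than at 1 hpi.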
